A study of Mus musculus with 15 samples.

Results

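A set of 10 genes, 9 of adrenal steroid synthesis and its control and Dlk1, was followed through kidney libraries of a mouse model of liver fibrosis with kidney injury. The 10 genes were Star, Cyp11a1, Hsd3b1, Cyp21a1, Cyp11b1, Cyp11b2, Nr5a1, Mc2r, Akr1b7 and Dlk1, and all 10 were found by symbol among the 23866 genes of the count table. The members were chosen by their counts, which were high in EtOH_264, EtOH_271 and EtOH_272 and not in EtOH_273, so their values in the EtOH group are given as a description, without a test.

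All mice were male C57BL/6, and kidneys were frozen before RNA extraction. The CCl4+EtOH group (CCl4_CCl4_EtOH_276, CCl4_CCl4_EtOH_277 and CCl4_CCl4_EtOH_278) had CCl4, the hepatotoxic solvent carbon tetrachloride, injected into the peritoneum over 6 weeks and then EtOH over 4 weeks. The titles of these samples name CCl4 a second time, so whether CCl4 went on during the EtOH weeks is not clear from the labels. The EtOH group (EtOH_264, EtOH_271, EtOH_272 and EtOH_273) had olive oil injections over 6 weeks and then EtOH over 4 weeks. The CCl4 group had CCl4 over 6 weeks (CCl4_6W_261 and CCl4_6W_262), followed in CCl4_10W_274 and CCl4_10W_275 by 4 weeks at a reduced dose. The olive oil group (OO_259, OO_260 and OO_263) had olive oil alone over 6 weeks, so it lacks the later 4 weeks. Age and the route of EtOH were not given in the labels. Libraries carry the names given in the sample titles, in which OO stands for olive oil, and 1 more olive oil sample was not analysed here. Library totals ran from 16.4 to 23.5 M counts. Levels are given as CPM, counts scaled to a common library total, on which 3 counts correspond to 0.119 CPM (CCl4_CCl4_EtOH_276) to 0.19 CPM (EtOH_273).

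The adrenal gland lies at the upper pole of the kidney. Its cortex makes corticosteroids from cholesterol: STAR brings cholesterol into the mitochondrion, CYP11A1 cleaves its side chain, 3-beta-hydroxysteroid dehydrogenase and CYP21A1 act next, and CYP11B1 and CYP11B2 complete corticosterone and aldosterone. NR5A1, also called SF-1, is the transcription factor that drives these genes, and MC2R is the receptor for corticotropin. The adrenal medulla, which makes catecholamines, consists of chromaffin cells.

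Promoters are shown for Akr1b7, which held a letter match to a half-site motif of NR5A1, and for Hsd3b1, the member that passed a test between groups. The promoter of Dlk1 is shown because its pattern was compared with the others. The RefSeq table (GRCm38.p6, 250 bases before to 50 after the gene start) matched 4 of the 10 members, with 5 windows because Cyp11a1 has more than 1 start. The letters AAGGTCA and AAGGCCA were searched on both strands and are in capitals where found.
Akr1b7, chr6:34412112-34412411, plus strand: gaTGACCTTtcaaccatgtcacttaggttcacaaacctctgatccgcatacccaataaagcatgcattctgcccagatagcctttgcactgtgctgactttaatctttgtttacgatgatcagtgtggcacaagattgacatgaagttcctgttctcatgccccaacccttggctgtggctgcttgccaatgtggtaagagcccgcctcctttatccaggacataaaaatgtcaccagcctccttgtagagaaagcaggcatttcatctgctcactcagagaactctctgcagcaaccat
Hsd3b1, chr3:98859745-98860044, minus strand: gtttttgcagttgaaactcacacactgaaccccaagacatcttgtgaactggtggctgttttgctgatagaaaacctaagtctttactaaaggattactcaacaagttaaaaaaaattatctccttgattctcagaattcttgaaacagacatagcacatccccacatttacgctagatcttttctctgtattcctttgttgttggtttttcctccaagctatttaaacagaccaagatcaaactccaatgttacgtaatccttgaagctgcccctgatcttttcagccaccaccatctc
Dlk1, chr12:109452573-109452872, plus strand: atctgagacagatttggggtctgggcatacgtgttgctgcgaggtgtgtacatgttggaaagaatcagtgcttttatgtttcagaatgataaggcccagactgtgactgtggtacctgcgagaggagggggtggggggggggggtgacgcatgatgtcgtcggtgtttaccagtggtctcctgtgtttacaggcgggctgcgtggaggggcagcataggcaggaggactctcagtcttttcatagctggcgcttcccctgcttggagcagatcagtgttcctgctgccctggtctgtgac
Either motif was present in 1 of the 5 windows, in Akr1b7 as TGACCTT, and in 10.6% of 32851 promoters of the same length. The letters TATAAA and TGACG were also searched on both strands and are not marked. TGACG was found in Dlk1 and, on the other strand, in 1 window of Cyp11a1, and in 20.8% of all these promoters. TATAAA was found in no window of a member. These matches describe letters in a window and no more.

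Transcripts of the corticosteroid pathway that are among the members were abundant in EtOH_264, EtOH_271 and EtOH_272 and at or near the olive oil level in EtOH_273. Star measured 198.6, 214.8, 267.9 and 6.47 CPM in EtOH_264, EtOH_271, EtOH_272 and EtOH_273, against 4.93, 5.26 and 5.2 CPM in OO_259, OO_260 and OO_263. Cyp11a1 measured 97.0, 82.2, 133.3 and 0 CPM in the same EtOH libraries, against 0.0587, 0.486 and 0.0542 CPM in the olive oil libraries. For both genes the EtOH group split between EtOH_273 and the other 3 libraries.

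Hsd3b1, a 3-beta-hydroxysteroid dehydrogenase, measured 139.0, 120.3, 244.4 and 2.09 CPM in EtOH_264, EtOH_271, EtOH_272 and EtOH_273, against 2.7, 2.08 and 1.3 CPM in OO_259, OO_260 and OO_263. Cyp21a1, the steroid hydroxylase on the way to corticosterone, measured 187.3, 180.3, 240.7 and 0 CPM in the EtOH libraries, against 0.0587, 0.133 and 0.0542 CPM in the olive oil libraries. For both enzymes the levels in EtOH_273 lay within or below the olive oil range. Cyp11b1, which makes corticosterone, measured 144.9, 102.6, 218.0 and 0.19 CPM in the EtOH libraries and had 0 counts in every olive oil library. Cyp11b2, the aldosterone synthase, measured 9.02, 9.5, 11.9 and 0 CPM in the EtOH libraries, also with 0 counts in every olive oil library.

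Nr5a1 measured 7.14, 6.73, 12.5 and 0 CPM in EtOH_264, EtOH_271, EtOH_272 and EtOH_273, against 0, 0.0883 and 0 CPM in OO_259, OO_260 and OO_263. Mc2r measured 7.49, 6.38, 7.8 and 0.444 CPM in the EtOH libraries, against 0.411, 0.309 and 0.163 CPM in the olive oil libraries. Both regulators were thus high in the same 3 EtOH libraries. Akr1b7, an aldo-keto reductase of the adrenal cortex, measured 74.2, 72.0, 141.1 and 2.54 CPM in the EtOH libraries, against 2.29, 3.05 and 4.44 CPM in the olive oil libraries. Dlk1, a transmembrane protein of the Notch ligand-like family that is imprinted and known from progenitor cells of adrenal and fat, measured 11.2, 5.98, 7.21 and 0.38 CPM in the EtOH libraries, against 0.117, 0.265 and 0.434 CPM in the olive oil libraries.

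**Figure D1:**
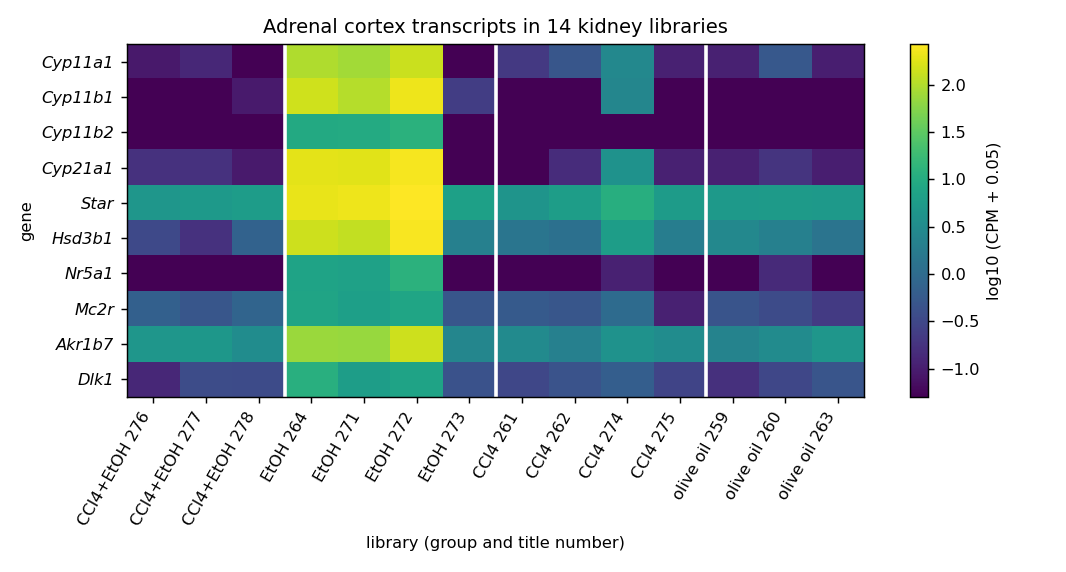
Heat map of the 10 members (rows) in the 14 libraries (columns, grouped as CCl4+EtOH, EtOH, CCl4 and olive oil), coloured by log10(CPM + 0.05). EtOH_264, EtOH_271 and EtOH_272 are high in every row, EtOH_273 is not, and CCl4_10W_274 is raised in several rows, with Cyp21a1 at 3.9 CPM.

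Pooled over the 4 EtOH libraries and the 3 olive oil libraries, the ratio of counts per adjusted library total was 35.3 for Star and 66.5 for Hsd3b1. Ratios against few olive oil counts were imprecise. For Cyp21a1, with 5 olive oil counts, the ratio was 1872.9 with an exact 95% interval of 802.4 to 5769.3, which, like those that follow, covers counting error only. For Cyp11a1, with 13 olive oil counts of which 11 were in OO_260, it was 370.2 (216.3 to 695.6), and 1469.2 without OO_260, a value computed after seeing the data. Cyp11b1 was at least 2390.7-fold higher and Cyp11b2 at least 156.0-fold higher, set against 3 counts over the olive oil group. The ratio was 19.9 for Mc2r (12.3 to 34.5), 23.5 for Akr1b7 and 23.7 for Dlk1 (14.4 to 41.8). For Nr5a1 it was 203.2 (56.0 to 1682.0) on 2 olive oil counts, both in OO_260. All 10 members exceeded a log2 fold change of 3 for EtOH against olive oil, as did 58 of 16105 genes, or 0.36%. The choice of members fixed that count. Of 23 other listed genes of steroid synthesis, 1 (Mgarp) exceeded this fold change for EtOH against olive oil. So did 2 of 14 listed genes of cortex zones and capsule (Kcnk3 and Kcnk9). Mgarp and Kcnk9 passed the filter on low counts only with the EtOH group in the fit. Fdx1 and Por stood at 0.03 and 0.08 on the log2 scale. Nr0b1, named after its values were seen, had 2, 0 and 1 counts in EtOH_264, EtOH_271 and EtOH_272. At an adjusted p under 0.05 in edgeR, 27 of 16105 genes, or 0.168%, were called in that comparison, and nothing is read from it about the members. That count ran from 3 (without OO_263) to 99 (without EtOH_273) with 1 library left out. In bulk tissue, a different number of cells of a type and a different amount of RNA per cell cannot be told apart.

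Per kilobase of exon (GENCODE M21 gene models), Cyp21a1 and Hsd3b1 ranked highest in these libraries. Cyp21a1 reached 87.5, 84.2 and 112.5 CPM per kilobase in EtOH_264, EtOH_271 and EtOH_272, and Hsd3b1 reached 74.9, 64.8 and 131.8. The order of these enzymes differed between libraries. Dlk1, at 1.97, 1.06 and 1.27 CPM per kilobase, and Nr5a1, at 1.68, 1.59 and 2.95, were the lowest. Near-identical sequence limits some members: 23.8% of 50-base windows of Cyp21a1 also occur in other genes (Cyp21a2-ps and Tnxa), as do 19.1% of those of Cyp11b2 and 18.1% of those of Cyp11b1, which share windows with each other, and 15.8% of those of Akr1b7. For Hsd3b1 the share of such windows was 4.86%, with Gm12431, Hsd3b6 and Hsd3b2 as the other genes. Exons on the opposite strand overlap 27.2% of Akr1b7 (Gm13857) and 9.0% of Cyp11b1 (Gml2). Reads of such opposite-strand pairs cannot be told apart without strand.

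A small amount of the same transcripts was present in CCl4_10W_274, a mouse of the longer CCl4 schedule. The summed counts of Cyp11a1, Cyp11b1 and Cyp21a1, called the cortex sum below, were 154 in that library, or 9.1 CPM. This was 2.12%, 2.49% and 1.54% of the level in EtOH_264, EtOH_271 and EtOH_272, and the other 10 libraries held 2 to 14 counts. Cyp11a1, Cyp11b1 and Cyp21a1 made up 29.2% (exact 95% interval 22.2 to 37.1), 27.9% (21.0 to 35.7) and 42.9% (34.9 to 51.1) of it. In EtOH_264 they made up 22.6%, 33.8% and 43.6%, in EtOH_271 22.5%, 28.1% and 49.4%, and in EtOH_272 22.5%, 36.8% and 40.7%. The intervals of CCl4_10W_274 include each of these shares except that of Cyp11b1 in EtOH_272, which lies above. Cyp11b2 had 0 counts in CCl4_10W_274.

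**Figure D2:**
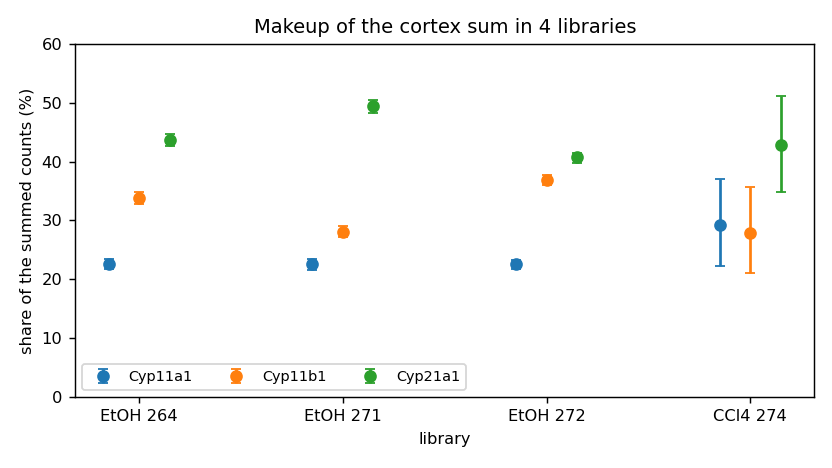
Share (%) of the cortex sum made up by Cyp11a1, Cyp11b1 and Cyp21a1 in EtOH_264, EtOH_271 and EtOH_272 and in CCl4_10W_274, with exact 95% intervals. Cyp21a1 is the largest share in all 4 libraries, and the intervals of CCl4_10W_274 are wide because they rest on 154 counts.

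Some markers of chromaffin cells were present in the same 3 EtOH libraries. Of 20 listed chromaffin markers, 15 passed the filter on low counts in the fit of all 4 groups and 9 in the fit without EtOH. Of the 15, 6 exceeded a log2 fold change of 3 for EtOH against olive oil. All 6 passed the filter only with the EtOH group in the fit, so the filter helped to set that count. The share over all genes was 0.36%, and nothing is read from setting the 2 side by side. Other listed markers were near the olive oil level, such as Ddc (means of 137.8 CPM in EtOH and 133.0 CPM in olive oil) and Cyb561 (61.6 and 63.1 CPM). Th, the rate-limiting enzyme of catecholamine synthesis, measured 22.5, 7.57, 19.6 and 0 CPM in EtOH_264, EtOH_271, EtOH_272 and EtOH_273, and had 0 counts in every other library. Chgb, a granin of secretory granules, measured 89.6, 31.6, 65.0 and 0.0634 CPM in the EtOH libraries, against 0.0587, 0.0442 and 0 CPM in the olive oil libraries. Th was named after its values were seen. The medulla markers and the cortex genes were not in a fixed proportion. The summed counts of Th, Dbh, Pnmt, Chga and Chgb came to 46.0, 19.9 and 24.8 per 100 cortex-sum counts in EtOH_264, EtOH_271 and EtOH_272, and to 3.9 in CCl4_10W_274, where they were 6 counts. Slc18a1, a vesicular amine transporter that was listed with these markers, was left out of that sum after its values were seen, because it measured 182.4 to 254.9 CPM in the EtOH libraries and 278.8 to 491.3 CPM in the olive oil libraries. Kidney markers differed in how they stood in the EtOH group. Umod, a gene of the thick ascending limb, averaged 4987.0 CPM in the EtOH group and 4851.0 CPM in the olive oil group. Kap, an androgen-regulated gene of the proximal tubule, measured 9515.2, 12842.4, 9217.0 and 11985.4 CPM in EtOH_264, EtOH_271, EtOH_272 and EtOH_273, against 26178.1, 25620.0 and 31039.6 CPM in OO_259, OO_260 and OO_263. The low level of Kap included EtOH_273, the library without the cortex transcripts. The part of chromaffin cells in the members' levels was not tested.

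**Figure D3:**
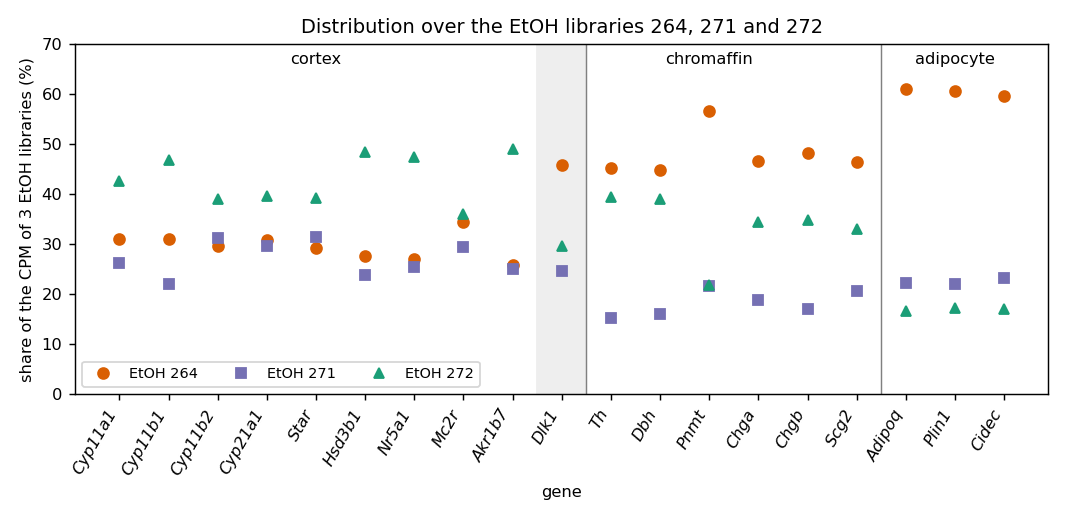
Share (%) of each gene's summed CPM over EtOH_264, EtOH_271 and EtOH_272 that falls in each of these libraries, for cortex members, chromaffin markers and adipocyte markers. Dlk1 has 45.8% in EtOH_264, 24.6% in EtOH_271 and 29.6% in EtOH_272, while the other members are highest in EtOH_272.

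Dlk1 was high in the same 3 libraries as the steroidogenic genes but was ordered differently within them. It was highest in EtOH_264, whereas all 9 other members were highest in EtOH_272 and none had the order of Dlk1. The share of all genes that were highest in EtOH_272 was not counted. The order of Dlk1 (EtOH_264, then EtOH_272, then EtOH_271) was shared by 8 of 16 chromaffin markers with at least 50 counts in these libraries. The share over all 14631 such genes was 19.4%. That order was also found in 7 of 22 other genes of steroid synthesis, 1 of 12 genes of cortex zones and capsule and 2 of 10 kidney markers. Genes of cortex zones and capsule were highest in different libraries, Kcnk3 and Pik3c2g in EtOH_264, Dab2 in EtOH_272 and Nr2f2 in EtOH_271. The order takes no account of size, and 1 of the 8 chromaffin markers, Cyb561, was almost level at 63.5, 62.2 and 62.6 CPM. All 9 adipocyte markers had the order EtOH_264, EtOH_271, EtOH_272, as did some kidney markers, such as Slc34a1 and Lrp2. How many of all genes had that order was not counted. Relative to the cortex sum, Dlk1 came to 2.53% of the counts of both in EtOH_264 (exact 95% interval 2.22 to 2.88), 1.61% in EtOH_271 (1.34 to 1.92) and 1.2% in EtOH_272 (1.02 to 1.41).

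The ratio of Dlk1 to the cortex sum thus varied 2.13-fold, against 1.27-fold to 1.38-fold for the 6 members outside that sum. EtOH_264 carried most of this spread, since the ratio in EtOH_271 was 1.35 times that in EtOH_272, a gap like that of Star (1.3) and Mc2r (1.33). Relative to the chromaffin sum without Slc18a1, Dlk1 varied 1.68-fold, against 2.02-fold to 2.94-fold for the other 9 members. Between EtOH_271 and EtOH_272 alone, however, Dlk1 differed by 1.68 times per chromaffin count and by 1.35 times per cortex count. Which of the sums Dlk1 stayed closer to therefore depended on EtOH_264.

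**Figure D4:**
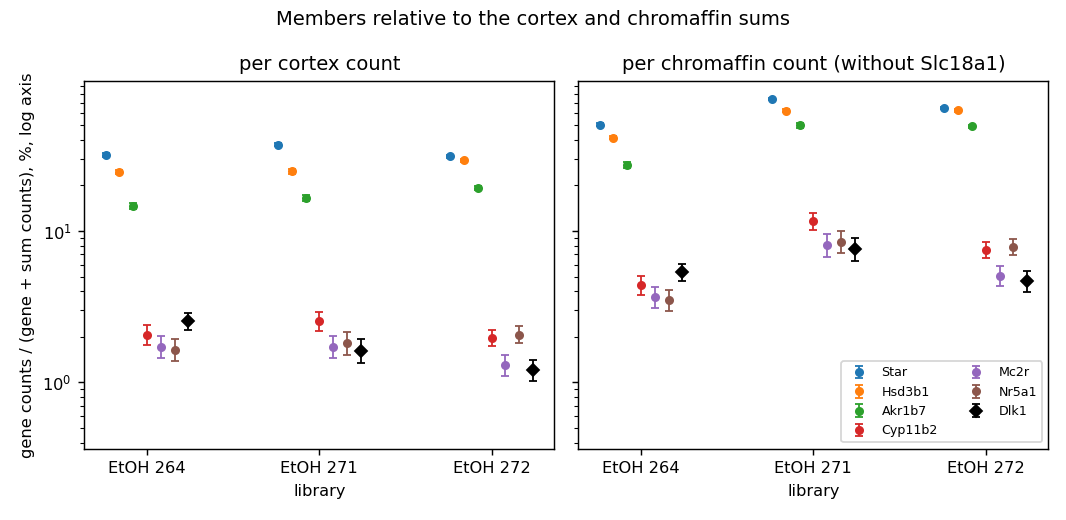
Counts of each member as a share (%, log axis) of that gene plus the cortex sum (left) or plus the chromaffin sum without Slc18a1 (right) in EtOH_264, EtOH_271 and EtOH_272, with exact 95% intervals. Dlk1 (black diamonds) is 2.53% in EtOH_264 and 1.2% in EtOH_272 on the left, where the other genes shift less.

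Across all 14 libraries, the overlap of share profiles (the sum over libraries of the smaller share, where 100% means identical) was 79.1% between Dlk1 and the cortex sum. It was 40.2% between Dlk1 and the chromaffin sum with Slc18a1, and 84.0% without it. Outside the members, the genes closest to Dlk1 were Rab3c (93.6%), Gal (89.9%), Prss35 (88.2%), Tbx20 (88.0%) and Meg3 (87.1%). Those closest to the cortex sum were Rims4 (94.8%), Mgarp (92.6%), Kcnk9 (91.6%), Bcan (90.6%) and Akr1cl (90.2%). All of these profiles share libraries and depth. Apart from the chromaffin sum with Slc18a1, each is dominated by EtOH_264, EtOH_271 and EtOH_272. Of the chromaffin sum with Slc18a1, 27.9% lay in these 3 libraries. Meg3, an imprinted noncoding RNA of the Dlk1 locus, measured 34.9, 26.3, 31.4 and 1.39 CPM in EtOH_264, EtOH_271, EtOH_272 and EtOH_273, against 3.99, 1.86 and 0.867 CPM in OO_259, OO_260 and OO_263. Rian, another imprinted noncoding RNA of the locus, measured 8.97, 8.06, 11.8 and 1.52 CPM in these EtOH libraries, against 1.53, 0.618 and 0.542 CPM in the olive oil libraries. It was highest in EtOH_272, unlike Dlk1 and Meg3, and its overlap with Dlk1 was 77.5%. Their neighbours Rtl1 and Dio3 measured at most 1.03 CPM in any library.

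Adipocyte markers were also high in libraries where Dlk1 was far below its level in EtOH_264. The summed adipocyte markers measured 975.1, 430.7, 298.4 and 339.2 CPM in EtOH_264, EtOH_271, EtOH_272 and EtOH_273, and reached 822.8 CPM in CCl4_10W_274 and 778.4 CPM in CCl4_CCl4_EtOH_278. Dlk1 measured 0.591 CPM in CCl4_10W_274, the highest of the 11 libraries outside EtOH_264, EtOH_271 and EtOH_272, and 0.302 CPM in CCl4_CCl4_EtOH_278. The part of adipocytes in the level of Dlk1 in EtOH_264 was not tested.

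Outside the EtOH group, 4 members were expressed well enough to be tested: Star, Hsd3b1, Mc2r and Akr1b7. The other 6 did not pass the filter on low counts. Among these, Cyp11b2 had 0 counts in every CCl4+EtOH, CCl4 and olive oil library, and Dlk1 measured 0.0795, 0.323 and 0.302 CPM in CCl4_CCl4_EtOH_276, CCl4_CCl4_EtOH_277 and CCl4_CCl4_EtOH_278 and 0.259, 0.395, 0.591 and 0.243 CPM in CCl4_6W_261, CCl4_6W_262, CCl4_10W_274 and CCl4_10W_275. In CCl4+EtOH against olive oil 5139 of 15879 genes, or 32.4%, passed an adjusted p of 0.05 in edgeR's quasi-likelihood test. Of the 4 members 1 did, Hsd3b1, which is no larger a share. Hsd3b1 measured 0.278, 0.121 and 0.691 CPM in CCl4_CCl4_EtOH_276, CCl4_CCl4_EtOH_277 and CCl4_CCl4_EtOH_278, against 2.7, 2.08 and 1.3 CPM in OO_259, OO_260 and OO_263. Of all genes 15.3% were called lower, and Hsd3b1 fell by 2.48 ± 0.76 on the log2 scale (SE, edgeR adjusted p = 0.0308). This call was lost when the EtOH group was in the fit (adjusted p = 0.294) and without CCl4_CCl4_EtOH_276 (0.0965), CCl4_CCl4_EtOH_277 (0.101), OO_259 (0.0816) or OO_260 (0.0705). Over 16 alternatives the adjusted p ran from 0.0031 to 0.294.

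Against CCl4, where 5134 of 15879 genes or 32.3% passed and 15.1% were lower, Hsd3b1 in CCl4+EtOH again was lower. CCl4_6W_261, CCl4_6W_262, CCl4_10W_274 and CCl4_10W_275 measured 1.35, 1.13, 5.97 and 1.88 CPM. The log2 change was -2.82 ± 0.73 (edgeR adjusted p = 0.0158), and -2.0 ± 0.54 (adjusted p = 0.0248) without CCl4_10W_274, the library with cortex transcripts. The call was lost with the EtOH group in the fit (0.204) and without CCl4_CCl4_EtOH_276 (0.0639) or CCl4_CCl4_EtOH_277 (0.0635), and over 16 alternatives the adjusted p ran from 0.000284 to 0.204. Hsd3b6, a related 3-beta-hydroxysteroid dehydrogenase, changed by -1.23 ± 0.27 in CCl4+EtOH against olive oil (edgeR adjusted p = 0.00734). Hsd3b6 measured 17.1, 12.7 and 15.7 CPM in OO_259, OO_260 and OO_263, above Hsd3b1 in each. Near-identical sequence is shared by Hsd3b1 and other genes, among them Hsd3b6 (4.86% of windows of Hsd3b1). Whether reads of Hsd3b6 entered the low counts of Hsd3b1 was not tested, so their changes are not read as separate findings.

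The remaining members did not pass in CCl4+EtOH against olive oil. Star measured 4.45, 5.17 and 5.74 CPM in CCl4_CCl4_EtOH_276, CCl4_CCl4_EtOH_277 and CCl4_CCl4_EtOH_278 and 4.15, 5.87, 10.8 and 5.53 CPM in CCl4_6W_261, CCl4_6W_262, CCl4_10W_274 and CCl4_10W_275. Akr1b7 measured 4.45, 4.72 and 3.24 CPM in these CCl4+EtOH libraries and 2.95, 2.02, 3.96 and 3.22 CPM in these CCl4 libraries. Mc2r measured 0.636, 0.444 and 0.734 CPM in the CCl4+EtOH libraries and 0.518, 0.444, 0.945 and 0.0608 CPM in the CCl4 libraries. The CCl4+EtOH and CCl4 ranges overlapped for all 3 genes, and the CCl4+EtOH and olive oil ranges overlapped for Star and Akr1b7. Mc2r in the CCl4+EtOH libraries lay above all olive oil libraries (0.163 to 0.411 CPM), without passing the test. How many of all genes separate in this way was not counted. Star differed by -0.01 ± 0.30 (edgeR adjusted p = 0.984), Mc2r by 1.02 ± 0.65 (0.246) and Akr1b7 by 0.34 ± 0.30 (0.402) on the log2 scale. Against CCl4, the CCl4+EtOH group differed by -0.37 ± 0.28 for Star (edgeR adjusted p = 0.334), 0.28 ± 0.57 for Mc2r (0.731) and 0.44 ± 0.28 for Akr1b7 (0.242). Without CCl4_10W_274, these differences were -0.02 for Star, 0.77 for Mc2r and 0.6 for Akr1b7, none of which passed. In CCl4 against olive oil, 0 of 15879 genes or 0% passed in edgeR, with 603 at an unadjusted p under 0.05, 0 in limma-voom and 5 in DESeq2. The log2 differences there were 0.36 ± 0.28 for Star, 0.34 ± 0.62 for Hsd3b1, 0.74 ± 0.64 for Mc2r and -0.11 ± 0.28 for Akr1b7, each with an edgeR adjusted p of 1. Without CCl4_10W_274, these differences were 0.01 for Star, -0.48 for Hsd3b1, 0.25 for Mc2r and -0.26 for Akr1b7.

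**Figure D5:**
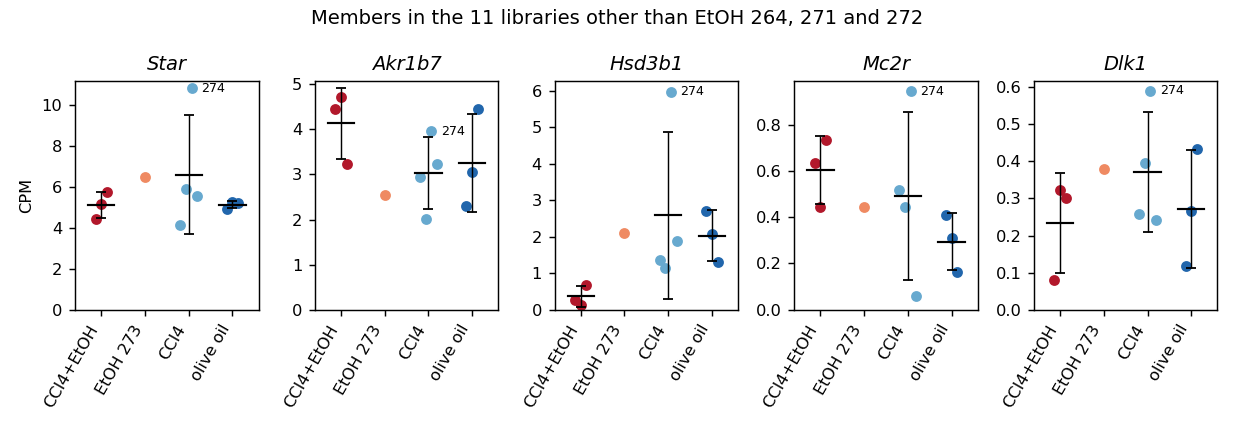
CPM of Star, Akr1b7, Hsd3b1, Mc2r and Dlk1 in the 11 libraries other than EtOH_264, EtOH_271 and EtOH_272, with group mean ± SD. Hsd3b1 is lowest in CCl4+EtOH, at 0.121 to 0.691 CPM, and CCl4_10W_274 stands above its group for Star and Hsd3b1.

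Other genes of steroid synthesis and its cofactors are used by kidney as well. Of 22 such genes tested in CCl4+EtOH against olive oil, 2 were higher and 8 lower, where 17% and 15.3% of all genes were called in these directions, and their median log2 difference was -0.09, against 0.02 for all genes. Scarb1, the lipoprotein receptor that supplies cholesterol, rose by 0.53 ± 0.11 (edgeR adjusted p = 0.00688). The electron carrier Fdx1 changed by -0.82 ± 0.13 (0.00225), the reductase Por by -0.71 ± 0.22 (0.0302) and Hsd11b1, which regenerates active glucocorticoid, by -1.44 ± 0.40 (0.0207). In the same comparison the kidney marker Kap changed by -3.04 ± 0.35 (0.000687). Scarb1, Fdx1 and Hsd3b6 were named after their values were seen. None of the 22 was called in CCl4 against olive oil.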

How the data were processed

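Kidney RNA was counted in 14 libraries. The deposited values are raw counts per gene symbol, 1 column per mouse, which the authors did not normalize. GSNAP and mm9 are named per the submitters' processing notes; for the counting step, its annotation and strandedness, the sources used here give nothing. Of 23893 rows, 27 held a calendar date in place of a symbol (0.168% to 0.209% of counts) and were left out. CPM scales counts to the library total of genes that passed the filter in the fit of all 4 groups, times its TMM factor.

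Tests used edgeR 4.0.16 under R 4.3.3 (filterByExpr, TMM, robust quasi-likelihood F test, Benjamini-Hochberg over all genes tested, threshold 0.05), in a fit of CCl4+EtOH, CCl4 and olive oil that leaves out EtOH. SE is approximate. Alternatives were DESeq2 1.42.0, limma-voom (limma 3.58.1), other scalings and filters, all 4 groups in 1 fit, and each library left out. Intervals are exact binomial at a confidence level of 0.95 and cover counting error only. Libraries of a group come from mice with separate numbers, and p-values measure the spread between them.

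Members and lists were chosen with earlier results of these data known. The chromaffin marker list and sum leave out 1 planned gene, which is not reported here. The text names all members, up to 4 genes per list with the highest mean CPM in the EtOH group where a result turns on them, and the 5 genes closest in profile to Dlk1 and to the cortex sum among genes with at least 50 counts. Sequences are from RefSeq (GRCm38.p6), a build other than that of the counts, and only gene names link them.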

Additional observations from a re-analysis of the deposited data

Results flagged for a closer look

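CCl4_10W_274 stood apart from the other CCl4 libraries by a gap that took up most of the group's range, more than Dixon's critical value for 4 samples. It measured 2.66 CPM of Cyp11a1, against 0.0608 to 0.444 CPM in the other CCl4 libraries. Cyp11b1 measured 2.54 CPM there and 0 CPM in the others. Cyp21a1 measured 3.9 CPM, against 0 to 0.0987 CPM, and Hsd3b1 5.97 CPM, against 1.13 to 1.88 CPM. Nr5a1 measured 0.0591 CPM against 0 CPM, which is below the limit of 3 counts and is not read as a difference. The cortex sum measured 9.1 CPM, against 0.122 to 0.543 CPM. There were 6 such gaps in 25 sets of a gene or sum in a group. All 6 concern the same library, and the cortex sum repeats genes flagged singly, so they are not separate observations. The nominal rate of 1 in 20 assumes normally spread values and does not hold for counts near 0. With 0 in the other libraries any count is flagged, as for Cyp11b1 and Nr5a1.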

How the results depend on the processing

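No paired analysis was possible because the numbers in the titles are those of single mice and no group shares one with another. In CCl4 against olive oil, 0 genes passed in edgeR and 5 in DESeq2. The EtOH against olive oil count of 58 genes over a log2 fold change of 3 was 343 with no filter on low counts and 35 to 122 with a library left out (35 without EtOH_264 or EtOH_272, 38 without EtOH_271, 97 without OO_260 or OO_263, 122 without OO_259). The 27 genes called there at an adjusted p under 0.05 became 94 in a fit of EtOH and olive oil alone, and 9, 31, 5, 99, 15, 4 and 3 without EtOH_264, EtOH_271, EtOH_272, EtOH_273, OO_259, OO_260 and OO_263. Without EtOH_264, EtOH_271 and EtOH_272, an alternative added after seeing the data in which EtOH_273 stands alone, 56 genes exceeded it, 15 of them shared and 1 a member (Cyp11b1, 3 counts in EtOH_273). With a library left out, 3209 to 7410 genes passed in CCl4+EtOH against olive oil and 2824 to 7401 in CCl4+EtOH against CCl4, against 5139 and 5134 with all libraries. The counts against olive oil were 3209 without CCl4_CCl4_EtOH_276, 3218 without CCl4_CCl4_EtOH_277 and 3276 without OO_260, and those against CCl4 were 2824 and 2885 without the first and the second of these.

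The overlap of Dlk1 with the cortex sum was 75.8% to 83.8% with 1 of the 4 EtOH libraries left out. Its overlap with the chromaffin sum, 40.2%, was 37.6% to 40.8% with 1 of the 4 EtOH libraries left out and 33.6% without Chga and Chgb. It was 91.9% when the markers' profiles were averaged with equal weight, and 84.0% without Slc18a1, so the abundant Slc18a1 set the value of 40.2%. Directions that reversed were all of uncalled differences: Star in CCl4+EtOH against olive oil (0.08 without CCl4_CCl4_EtOH_276, 0.01 without OO_260, range -0.1 to 0.08), Hsd3b1 in CCl4 against olive oil (-0.48 without CCl4_10W_274, range -0.48 to 0.6), Akr1b7 in CCl4 against olive oil (0.05 without CCl4_6W_262, 0.17 without OO_263, range -0.29 to 0.17) and Mc2r in CCl4+EtOH against CCl4 (-0.07 without CCl4_10W_275, range -0.07 to 0.77). At these depths, members at 3 counts or fewer in a library cannot be told from 0.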
